A study of Homo sapiens with 6 samples.

Results

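Expression of 10 heat shock chaperone and co-chaperone genes, HSPA1A, HSPA1B, HSPA8, HSPH1, HSP90AA1, HSP90AB1, HSPB1, HSPD1, DNAJB1 and BAG3, was examined in quiescent hTERT RPE1 cells given a drug that takes microtubules apart. The genes were chosen by name, as the rows whose Ensembl ID maps to these symbols. The rule uses no measured value, but the names were picked with earlier results of these data known. They are 10 of the 38900 rows of the deposited table. Of these, 9 passed the filter of a mean of at least 10 normalized counts, as did 13928 genes in all, and 8 had a clear level in every library.

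The study holds 6 polyA RNA sequencing libraries. The line hTERT RPE1 was derived from human retinal pigment epithelium and made immortal with telomerase, and it is widely used. All cells were held at full confluency for 5 days to make them quiescent, and then received fresh medium for 6 hours with 100 nM combretastatin A4 (CA4, 3 libraries) or with 0.1% DMSO, the solvent (3 libraries). CA4 binds tubulin and depolymerizes microtubules, so the comparison asks how chaperone transcripts stand when microtubules are lost in cells brought to rest. All libraries come from 1 cell line, and the labels do not say whether the replicates were separate cultures, so p-values measure only the spread between these libraries, which may be technical.

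Chaperones bind unfolded proteins and help them to fold, to be held or to be degraded. HSP70 proteins bind short exposed stretches in a cycle driven by ATP, J-domain proteins such as DNAJB1 bring them their clients, and nucleotide exchange factors such as HSPH1 and BAG3 release them. HSP90 proteins act later, on clients such as kinases and steroid receptors, and small heat shock proteins such as HSPB1 hold unfolded proteins without ATP. When unfolded proteins accumulate, the factor HSF1 binds heat shock elements, repeats of the unit GAA in alternating orientation, and raises transcription of many of these genes. HSPD1 is the HSP60 of the mitochondrial matrix, although it was grouped here with chaperones of the cytosol.

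Promoters are shown first because the heat shock response acts through a short DNA element, which can be looked for there. RefSeq promoter windows (GRCh38.p14) were searched in the 250 bases before the gene start for GAANNTTC and TTCNNGAA, the 2 arrangements of a pair of adjacent GAA units. Each word reads the same on both strands, and the words may overlap. All 10 genes matched, with 16 windows. At least 1 word lay in 8 of the 10 genes, against 14% of the 27305 genes with a window, and in 8 of the 16 windows, against 11.6% of all 35116 windows. Runs of at least 3 units lay in 4 windows of 4 genes, HSPA8, HSP90AA1, HSP90AB1 and HSPD1, against 0.441% of all windows. For 6 of the genes, 70 bases are printed 5′ to 3′ on the strand of the gene, with the longest run in capitals, or the one nearest the gene start where several are equally long. Other matches stay in lower case, as in DNAJB1 and HSP90AA1, and the windows of HSPA8 and HSP90AB1 each hold 2 runs of 3 units.
HSPD1, chr2:197500021-197500090, minus strand: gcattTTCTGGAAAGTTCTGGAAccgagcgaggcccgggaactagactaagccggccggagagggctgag
HSP90AB1, chr6:44247802-44247871, plus strand: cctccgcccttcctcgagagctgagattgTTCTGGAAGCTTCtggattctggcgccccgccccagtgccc
HSPA8, chr11:123062151-123062220, minus strand: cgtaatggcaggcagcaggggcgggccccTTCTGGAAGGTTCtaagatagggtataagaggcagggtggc
HSP90AA1, chr14:102087092-102087161, minus strand: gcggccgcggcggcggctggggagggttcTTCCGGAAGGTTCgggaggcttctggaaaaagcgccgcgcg
DNAJB1, chr19:14518406-14518475, minus strand: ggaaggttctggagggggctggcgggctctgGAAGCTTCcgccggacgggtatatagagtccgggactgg
HSPB1, chr7:76302460-76302529, plus strand: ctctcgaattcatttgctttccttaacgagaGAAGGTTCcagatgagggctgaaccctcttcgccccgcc

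The windows of BAG3 and HSPH1 held neither word, which says only that these letters are not in these windows. A match is a description of the sequence, not a binding site. No binding was measured here.

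The values are normalized counts, the reads of a gene after scaling for its library's depth, and the libraries held between 19524936 and 22538004 recovered reads. In the second principal component, which held 21.3% of the variance, replicate 1 of DMSO (30.2) and of CA4 (34.79) lay apart from the other 4 libraries (-37.74 to 2.99). The summed level of 14 proliferation genes, a list added later, in replicates 1 to 3 was 19223, 10963 and 10196 normalized counts for DMSO and 14256, 9260 and 6183 for CA4, so DMSO replicate 1 was the highest of all. Such genes were read in every library, among them MKI67 at 1191 to 4849 and TOP2A at 712 to 3030 normalized counts, so the RNA does not show that all cells had left the cell cycle. Of 8 markers of retinal pigment epithelium, RLBP1 (0 to 5.7) and TYR (0 to 2.9) were at or near the limit that a count of 0 allows, 3 reads or 2.8 to 3.37 normalized counts. PMEL ran from 8.41 to 22.3, SERPINF1 from 12.3 to 23.6, RPE65 from 13.5 to 40.8 and BEST1 from 42.5 to 99.7. The transcription factors OTX2 (423 to 630 with DMSO, 226 to 255 with CA4) and MITF (620 to 1085 and 322 to 647) were lower with CA4, OTX2 without overlap and MITF with it. The sum of the 8 markers was 1144 to 1850 with DMSO and 650 to 1049 with CA4, but MITF and OTX2 made up most of it. RPE65 was also lower with CA4 without overlap (20.6 to 40.8 and 13.5 to 18.9), while BEST1, PMEL and SERPINF1 overlapped between the groups. The part of these 8 markers in the results below was not tested. Of the keratins of simple epithelia, KRT8 ran from 14118 to 16502, while KRT18 was at 8393 to 10397 with DMSO and 11056 to 14919 with CA4. Of 4 markers of other cell types, PECAM1 of endothelium was at 330, 338 and 284 with DMSO and 457, 357 and 916 with CA4, and PTPRC of leukocytes at 2.8 to 3.86 and 4.49 to 10.6, both without overlap. RBFOX3 of neurons (2.9 to 18.9) and EPCAM of other epithelia (0 to 4.46) overlapped between the groups, and the part of these markers in the results was not tested either. All libraries come from 1 cell line, and in such bulk libraries a change in some of its cells and a change in all of them cannot be told apart.

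Among the chaperone genes, BAG3 alone passed the test, and it rose. BAG3 (ENSG00000151929, chr10:119651370-119677819, plus strand, here and below in GRCh38 by GENCODE 29) is a nucleotide exchange factor of HSP70 that also joins HSP70 to small heat shock proteins and to selective autophagy. With DMSO, replicates 1, 2 and 3 were at 3223, 2980 and 2851 normalized counts. With CA4 they were at 4120, 4010 and 4286, and values below keep this order. Every CA4 library lay above every DMSO library, and the libraries of each group lay close together. The means were 3018 ± 189 and 4139 ± 139 (SD, n = 3 each), a 1.37-fold difference. On the scale log2(normalized count + 1) used for all fold changes, limma's moderated test gave 0.46 (SE 0.08, 95% interval 0.27 to 0.64, adjusted p = 0.0223). The size held in all 6 fits that leave out 1 library, from 0.42 to 0.51, but the limma adjusted p passed 0.05 in 4 of them. It was 0.0914 without DMSO replicate 2, 0.0976 without DMSO replicate 3, 0.0814 without CA4 replicate 1 and 0.093 without CA4 replicate 3. The call was also lost without the mean trend in the variance prior (limma adjusted p = 0.0802).

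So 1 of the 9 tested chaperone genes passed, higher in CA4, where 4.94% of all tested genes passed in either direction and 2.97% passed upward. A single call among 9 genes is close to that background and is no result about the group. An unadjusted limma p under 0.05 was reached by 5 of the 9, against 23% of all tested genes, and no test of the group as a whole was run. The CA4 libraries all lay above the DMSO libraries in 2 of the 9, BAG3 and HSPB1, against 14.3% of all tested genes. The median log2 fold change of the 8 genes with a clear level was 0.40, and that of all tested genes was -0.01. It was 0.46 over the 9, which add HSPA1B. That row passed the filter only through its CA4 values (means of 7.6 with DMSO and 24.7 with CA4). Of the 8, 7 had a positive value, against 48.9% of tested genes, and DNAJB1 a negative one. None changed sign under any of the 19 alternatives tried. The variance priors, the replicate block, the filters and the summing of HSPA1A with HSPA1B leave these values unchanged by construction, so they could not change a sign.

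**Figure D1:**
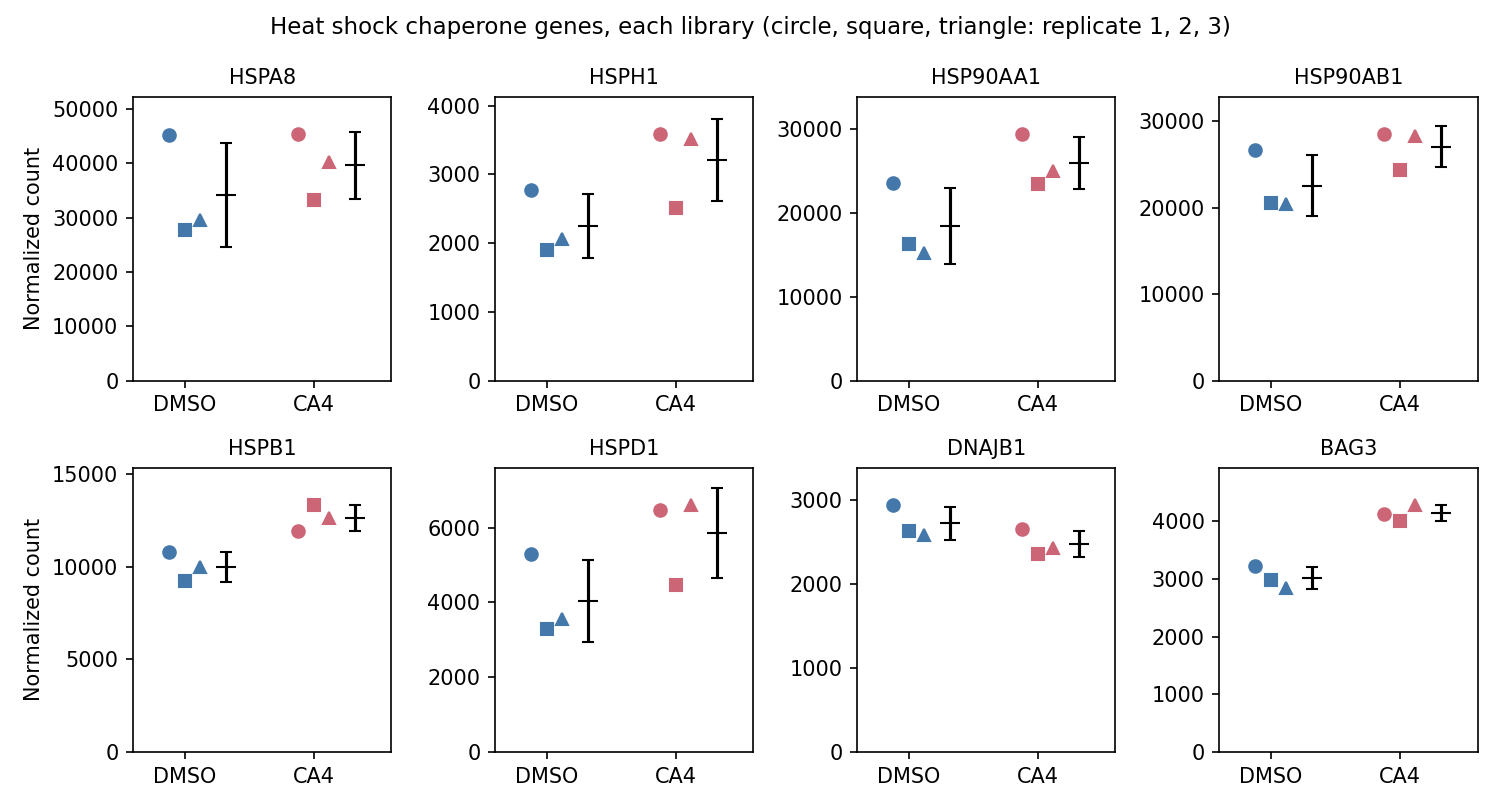
Normalized counts (axes from 0) of the 8 chaperone genes with a clear level in each DMSO and CA4 library, with the mean and SD (n = 3 each) beside the points. BAG3 and HSPB1 have all CA4 points above all DMSO points, while in the other 6 genes the groups overlap.

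Of the HSP70 and HSP110 genes, the constitutive HSPA8 and the exchange factor HSPH1 did not pass. HSPA8 (ENSG00000109971, chr11:123057489-123063230, minus strand) encodes HSC70, the HSP70 that is present without stress. It was at 45200, 27733 and 29623 normalized counts in DMSO and 45503, 33254 and 40258 in CA4. DMSO replicate 1 stood level with the highest CA4 library, so the groups overlapped, while each CA4 library exceeded the other 2 DMSO libraries. The means were 34185 ± 9586 and 39672 ± 6145 (SD, n = 3 each), and the log2 fold change was 0.24 (95% interval -0.23 to 0.70, limma adjusted p = 0.525). That value depended on the libraries and the scaling. It was 0.46, 0.10 and 0.15 without DMSO replicates 1, 2 and 3, 0.13 and 0.36 without CA4 replicates 1 and 2, 0.083 with quantile normalization and 0.14 with equal totals. HSPH1 (ENSG00000120694, chr13:31134974-31162388, minus strand), an HSP110 protein that lets HSP70 exchange its nucleotide and takes part in breaking up aggregates, was at 2771, 1900 and 2062 in DMSO and 3592, 2517 and 3515 in CA4. CA4 replicate 2 lay below DMSO replicate 1, and the other 2 CA4 libraries lay above all of DMSO. Its log2 fold change was 0.52, with a 95% interval of 0.09 to 0.94 and a limma adjusted p of 0.149.

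HSPA1A (ENSG00000204389, chr6:31815464-31817946, plus strand) and HSPA1B (ENSG00000204388, chr6:31827735-31830255, plus strand), the near-identical genes of stress-inducible HSP70, could not be measured from their rows. The row of HSPA1A held 13.5 normalized counts in DMSO replicate 1 and was listed at 0 in the other 5 libraries. HSPA1B was listed at 0 in DMSO replicates 1 and 2 and CA4 replicate 2, and stood at 22.8 in DMSO replicate 3, 31.9 in CA4 replicate 1 and 42.4 in CA4 replicate 3. No fold or p-value is given for either gene, since HSPA1B passed the filter only through its CA4 values and HSPA1A did not pass. GENCODE 29 gives HSPA1A 10 transcripts, of which 8 lie outside the primary assembly, and HSPA1B 8, of which 7 do. The deposited table holds 2501 IDs that GENCODE 29 places outside the primary assembly, with 1.61% of all reads, and the tables used here do not pair those IDs with symbols. These 2 rows are therefore no measure of the total RNA of inducible HSP70. HSPA6, another stress-inducible HSP70 gene, was picked here after its values were seen. It lay between 2.8 and 4.75 normalized counts in DMSO and between 4.49 and 16.4 in CA4, below the filter.

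Neither HSP90 gene passed. HSP90AA1 (ENSG00000080824, chr14:102080738-102139699, minus strand), the stress-responsive form of cytosolic HSP90, was at 23596, 16359 and 15289 normalized counts in DMSO and at 29486, 23523 and 25020 in CA4. CA4 replicate 2 fell just short of DMSO replicate 1, and apart from that pair the groups did not overlap. The means were 18415 ± 4519 and 26010 ± 3102 (SD, n = 3 each), 1.41-fold apart, and the log2 fold change was 0.52 (95% interval 0.12 to 0.92, limma adjusted p = 0.126), or 0.33 with quantile normalization. HSP90AB1 (ENSG00000096384, chr6:44246166-44253888, plus strand), the constitutive form, was at 26637, 20504 and 20444 in DMSO and at 28552, 24291 and 28267 in CA4. Again DMSO replicate 1 lay within the CA4 range. The log2 fold change was 0.27, with a 95% interval of -0.02 to 0.56 and a limma adjusted p of 0.254, and it was 0.069 with quantile normalization and 0.17 with equal totals. The difference between the responses of the 2 HSP90 genes was not tested.

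DNAJB1 (ENSG00000132002, chr19:14514770-14529770, minus strand), the J-domain protein that partners HSP70 in heat-shocked cells, was the one gene with a negative value. It stood at 2945, 2636 and 2587 normalized counts with DMSO and 2653, 2362 and 2428 with CA4. The groups overlapped through CA4 replicate 1, and the means were 2723 ± 194 and 2481 ± 153 (SD, n = 3 each). The log2 fold change was -0.13 (95% interval -0.34 to 0.07, limma adjusted p = 0.414), and it was -0.076 without DMSO replicate 1 and -0.23 with equal totals.

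HSPB1 (ENSG00000106211, chr7:76302544-76304295, plus strand), which encodes the small heat shock protein HSP27, came closest to the threshold after BAG3. It was at 10796, 9212 and 9980 normalized counts in DMSO and 11934, 13355 and 12650 in CA4. Each CA4 library exceeded each DMSO library, with means of 9996 ± 793 and 12647 ± 711 (SD, n = 3 each). The log2 fold change was 0.34 (SE 0.09, 95% interval 0.14 to 0.54, limma adjusted p = 0.0677), and so it missed the threshold.

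HSPD1 (ENSG00000144381, chr2:197486581-197516737, minus strand), which folds proteins imported into mitochondria, had the highest log2 fold change of the 8 genes and one of the widest intervals. It was at 5306, 3279 and 3562 normalized counts in DMSO and 6487, 4466 and 6615 in CA4. CA4 replicate 2 lay below DMSO replicate 1, and the other 2 CA4 libraries lay above all of DMSO. The means were 4049 ± 1098 and 5856 ± 1206 (SD, n = 3 each), and the log2 fold change was 0.54 (95% interval 0.04 to 1.05, limma adjusted p = 0.188). HSPD1 shares 6.62% of its exon bases (GENCODE 29) with HSPE1 on the opposite strand. Among the other 7 genes with a clear level this share was at most 6.21%, in DNAJB1.

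**Figure D2:**
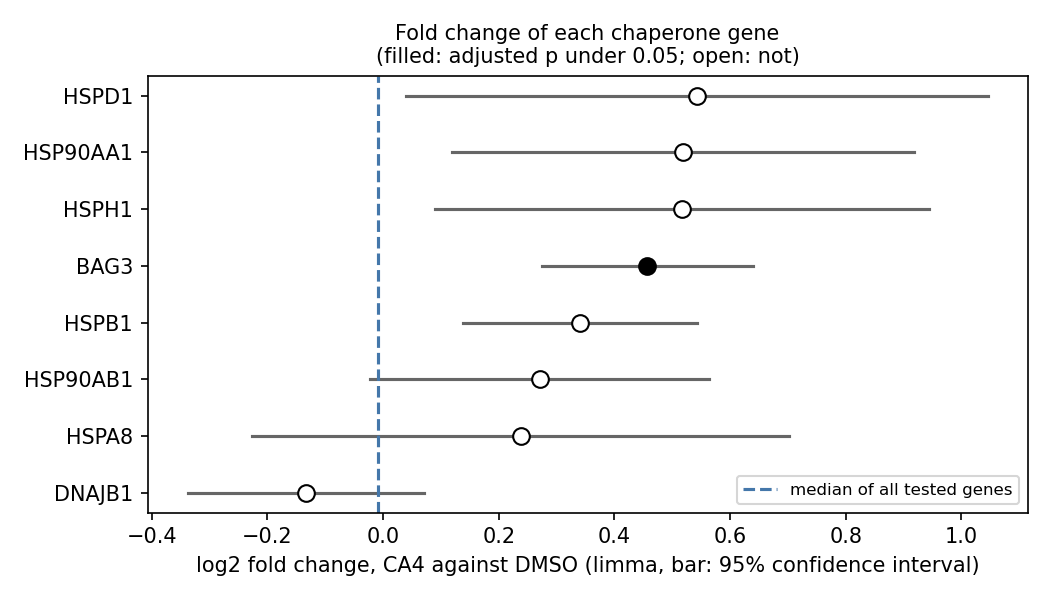
Log2 fold change of CA4 against DMSO for each chaperone gene with its 95% confidence interval from limma (3 libraries each), with a filled point where the adjusted p was under 0.05 and a dashed line at the median of all tested genes. BAG3 alone is filled, at 0.46, and the intervals of HSPA8, HSP90AB1 and DNAJB1 reach across 0.

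DMSO replicate 1 was the highest of the DMSO libraries in all 8 genes, against 38% of tested genes. Its value was 1.11 times (BAG3) to 1.58 times (HSPA8) the mean of DMSO replicates 2 and 3. The 3 CA4 libraries exceeded DMSO replicates 2 and 3 in 7 of the 8 genes, against 22.7% of tested genes. Without DMSO replicate 1, limma's adjusted p fell under 0.05 for 3 of the 9, where 7.14% of all tested genes passed: BAG3 (0.51, adjusted p = 0.0195), HSP90AA1 (0.71, adjusted p = 0.02) and HSPB1 (0.40, adjusted p = 0.0434). Leaving out the highest DMSO library lowers the DMSO mean of each gene by construction. Leaving out CA4 replicate 2 left 1 chaperone gene past the threshold, and leaving out DMSO replicate 2 or 3 or CA4 replicate 1 or 3 left 0. These fits also passed fewer of the 13928 tested genes than the fit without DMSO replicate 1, down to 81. The counts of 1 and 0 are therefore no result about the chaperone genes. DESeq2 on the recovered reads of all 6 libraries also called HSP90AA1 (adjusted p = 0.0437) and HSPB1 (0.0107) beside BAG3, where 12.3% of the 13105 genes given an adjusted p passed. HSPH1, HSPD1 and HSP90AB1 without DMSO replicate 1 had limma adjusted p-values of 0.0586, 0.0539 and 0.0596. DMSO replicate 1 also had the highest sum of proliferation genes. It lay apart on the second component together with CA4 replicate 1 (30.2 and 34.79), whose proliferation sum was the highest of the CA4 libraries. CA4 replicate 1 was also the highest CA4 library for HSPA8, HSPH1, HSP90AA1, HSP90AB1 and DNAJB1, but not for HSPB1, HSPD1 or BAG3. The part of these traits in the result was not tested.

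**Figure D3:**
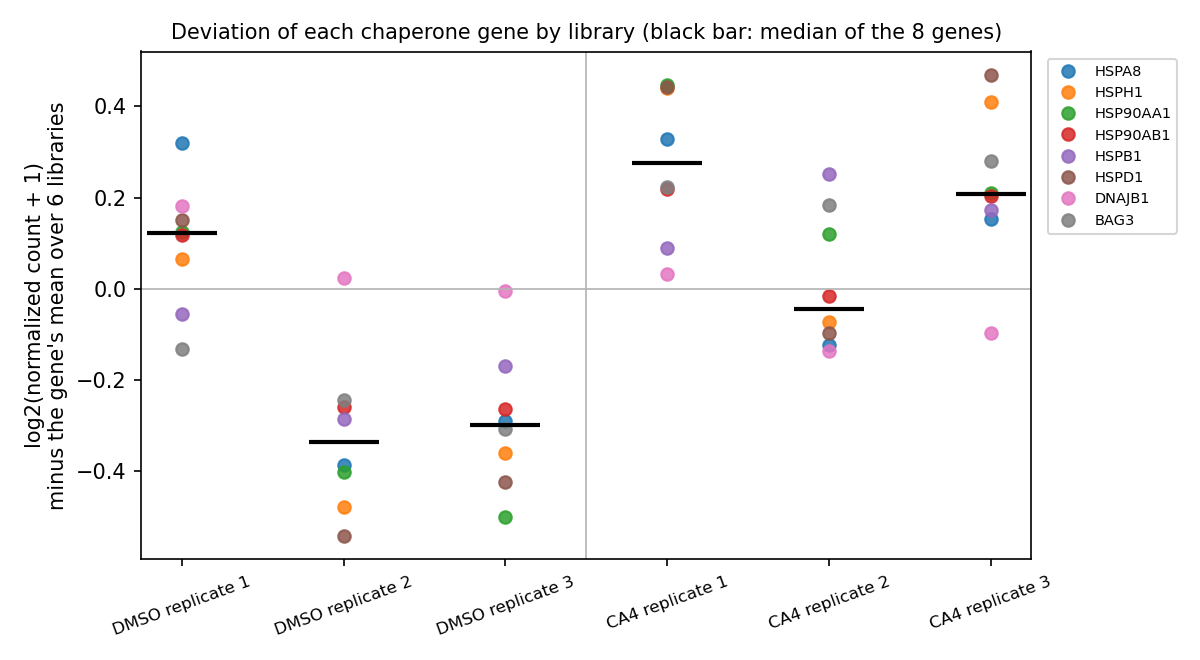
Deviation of each chaperone gene from its own mean over the 6 libraries, as log2(normalized count + 1), by library, with a black bar at the median of the 8 genes. The medians were 0.12 in DMSO replicate 1, -0.34 in DMSO replicate 2, -0.30 in DMSO replicate 3, and 0.28, -0.04 and 0.21 in CA4 replicates 1 to 3, so DMSO replicate 1 lay above CA4 replicate 2.

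The genes did not all vary together. HSPA8, HSPH1, HSP90AA1, HSP90AB1 and HSPD1 had Pearson correlations of 0.88 to 0.995 with one another over the 6 libraries on log2 values, the highest between HSPH1 and HSPD1. For HSPH1 and HSPD1 the correlation of the deviations from the group means was 0.994, so the 2 genes varied together within groups as well. HSPB1 and BAG3 correlated at 0.911 over the 6 libraries but at 0.343 in those deviations. DNAJB1 had correlations of -0.55 to 0.37 with the other 7, while its deviations from the group means correlated at 0.968 with those of HSP90AA1 and at 0.933 with those of HSPA8. These points share library, scaling and depth, and over 6 points they are given as a description.

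The mean z-score of the 9 tested genes was 0.26, -1.01 and -0.75 with DMSO and 0.88, -0.08 and 0.70 with CA4. The 5 genes outside the group that followed it most closely over the 6 libraries were HES6 (Pearson r = 0.999), NAPG (0.998), EIF3J (0.996), SEH1L (0.996) and RPF2 (0.996). None of the 5 passed the test between groups, with limma adjusted p-values of 0.189 to 0.266. HSPA1B, one of the 9, was at 0 in 3 libraries. With it left out, the mean z-score was 0.41, -1.02 and -0.94 with DMSO and 0.88, 0.02 and 0.65 with CA4. The 5 genes closest to that score were UNC13A, IPO4, NAPG, NOP58 and ANXA5, so NAPG alone was named in both.

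Beyond these 10, 68 genes in 8 lists of the chaperone network and the heat shock response were followed, of which 60 were tested. The test was passed by 6 of them, 5 higher and 1 lower, against the 4.94% of all tested genes, and the median log2 fold change of the 60 was 0.16. CA4 libraries lay wholly above DMSO in 20 of them and wholly below in 5, against 14.3% and 13.4% of all tested genes. None of the 6 passed without the mean trend in the variance prior, where limma adjusted p-values were 0.059 to 0.0871. With every library scaled to the same total, BAG2 (adjusted p = 0.051) and HSPB7 (0.0592) also missed the threshold in limma. Without DMSO replicates 1, 2 or 3, or CA4 replicates 1, 2 or 3, the number past the threshold was 8, 2, 0, 1, 3 and 0 in that order.

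Of 9 tested J-domain co-chaperones, DNAJB6 rose and no other passed, where 4.94% of all tested genes passed. Of the 9, 8 had a positive value, against 48.9% of tested genes. In 5 all CA4 libraries lay above all DMSO libraries, against 14.3%. DNAJB5, picked after its values were seen, was the only one of the 9 with a negative value. It had all CA4 libraries (397, 515 and 449 normalized counts) below all DMSO libraries (534, 528 and 574) and missed the threshold (-0.27, limma adjusted p = 0.246). DNAJB6 keeps aggregation-prone proteins such as those with long glutamine stretches soluble. It was at 3277, 3542 and 3440 normalized counts with DMSO and 4821, 5164 and 5315 with CA4. The groups were far apart, with means of 3420 ± 134 and 5100 ± 253 (SD, n = 3 each). In limma the log2 difference was 0.58 (SE 0.08, adjusted p = 0.012), a call that was lost without DMSO replicate 3 (adjusted p = 0.0627) and without CA4 replicate 3 (0.0527). The list's median was 0.19, and DNAJB1 differed from DNAJB6 in the sign of its value, a difference that was not tested.

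Of the 8 BAG proteins and other HSP70 partners, BAG2, an exchange factor that limits the ubiquitin ligase CHIP, rose and no other passed. The share of all tested genes that passed was 4.94%, and the list's median was 0.03. The list includes BAG6, which has copies outside the primary assembly as HSPA1A does (198 of its 227 transcripts in GENCODE 29 are off the primary assembly), so its row, at 797 to 2442 with DMSO and 885 to 1539 with CA4, is no measure of its total RNA. BAG2 was at 416, 305 and 336 in DMSO and 583, 532 and 614 in CA4, without overlap. The log2 difference was 0.72 (SE 0.14, adjusted p = 0.0352 in limma). That call held without DMSO replicate 1 and was lost without any of the other 5 libraries, with limma adjusted p-values of 0.0604 to 0.131. By GENCODE 29, BAG2 shares 44.2% of its exon bases with RAB23 and ZNF451-AS1 on the opposite strand. Since use of strand in counting is not given in the sources used here, reads on the shared bases cannot be told apart from reads of those 2 genes.

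Among 4 tested small heat shock proteins beside HSPB1, HSPB7 rose, where 4.94% of all tested genes passed. HSPB7, known mainly from heart muscle, was at 443, 323 and 292 with DMSO and 606, 592 and 593 with CA4. The 3 CA4 libraries lay within a narrow band above all DMSO libraries, and the log2 difference was 0.78 (SE 0.16, adjusted p = 0.0408 in limma). Again the call held without DMSO replicate 1 alone, and leaving out any of the other 5 libraries gave limma adjusted p-values of 0.0881 to 0.143.

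None of the 15 HSP90 co-chaperones passed, and their median log2 fold change was 0.16. AHSA1, which speeds up the ATPase of HSP90, was nearest, with means of 1149 ± 77.5 for DMSO and 1490 ± 64.5 normalized counts for CA4 (SD, n = 3 each; 0.38, limma adjusted p = 0.0555). FKBP4, the immunophilin that joins HSP90 to steroid receptors, had a log2 fold change of 0.35 and a limma adjusted p of 0.11. In both genes all CA4 libraries lay above all DMSO libraries. An unadjusted p under 0.05 was reached by 3 of the 15, against 23% of all tested genes. AHSA1 passed without DMSO replicate 1 (limma adjusted p = 0.0405), under the stricter filter of a mean of 50 (0.0488) and with DESeq2 (0.00826).

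None of the 6 other mitochondrial chaperones passed, and all 6 had positive values, against 48.9% of tested genes, with a median of 0.38. HSPA9, the mitochondrial HSP70, had means of 3471 ± 543 with DMSO and 4994 ± 691 with CA4 (SD, n = 3 each; 0.53, limma adjusted p = 0.0763). HSPE1, the lid of the chamber that HSPD1 forms, had means of 809 ± 87.8 and 1078 ± 91.4 (SD, n = 3 each; 0.42, limma adjusted p = 0.0829). In both genes the groups did not overlap, but 23.9% of the exon bases of HSPE1 are shared with HSPD1 and the readthrough gene HSPE1-MOB4. Of the list, 4 of the 6 had an unadjusted p under 0.05, against 23% of tested genes. Without DMSO replicate 1, HSPA9 (limma adjusted p = 0.0335) and HSPE1 (0.0469) passed, as they did with DESeq2 (0.00978 and 0.0271).

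Among the 4 heat shock factors and regulators none passed. HSF1, the main activator of the response, had a log2 fold change of 0.17 (limma adjusted p = 0.423), which was 0.074 without DMSO replicate 3 and 0.067 with equal totals, and 14 of its 28 GENCODE 29 transcripts are off the primary assembly. HSF2 had means of 171 ± 3.45 for DMSO and 122 ± 17.1 normalized counts for CA4 (SD, n = 3 each), with every CA4 library below DMSO, a log2 fold change of -0.49 and a limma adjusted p of 0.127. Of 6 tested cytosolic HSP70 and HSP110 genes outside the group none passed either, and their median was 0.07. The smallest adjusted p there belonged to HSPA12A (0.25, limma adjusted p = 0.247) and HSPA14 (0.16, limma adjusted p = 0.687). HSPA12A was at 0.15 with equal totals. HSPA14 was at -0.028 without CA4 replicate 1, 0.33 without CA4 replicate 2, 0.25 with quantile normalization and 0.061 with equal totals, so it has no settled direction.

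Of the 8 other genes induced by heat shock, 2 rose and 1 fell, with a list median of 0.14. Of all tested genes, 4.94% passed in either direction and 2.97% upward. IER5, an immediate early gene whose protein helps to activate HSF1, was at 726, 581 and 566 in DMSO and 1248, 988 and 1002 in CA4 (0.79, SE 0.14, limma adjusted p = 0.0251). ZFAND2A, which encodes the proteasome-associated AIRAP, was at 275, 266 and 251 in DMSO and 470, 370 and 478 in CA4 (0.73, SE 0.14, limma adjusted p = 0.0316). In both genes the CA4 libraries all lay above the DMSO libraries, and each call held without DMSO replicate 1 or CA4 replicate 2. Leaving out any of the other 4 libraries gave limma adjusted p-values of 0.0767 to 0.105 for IER5 and 0.104 to 0.121 for ZFAND2A. SLC5A3, an inositol transporter better known from the response to high osmolarity, fell from 763, 530 and 814 to 387, 335 and 382 (-0.91, SE 0.17, limma adjusted p = 0.0324). This call held without DMSO replicate 2 and was lost without any of the other 5 libraries (limma adjusted p = 0.054 to 0.121).

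**Figure D4:**
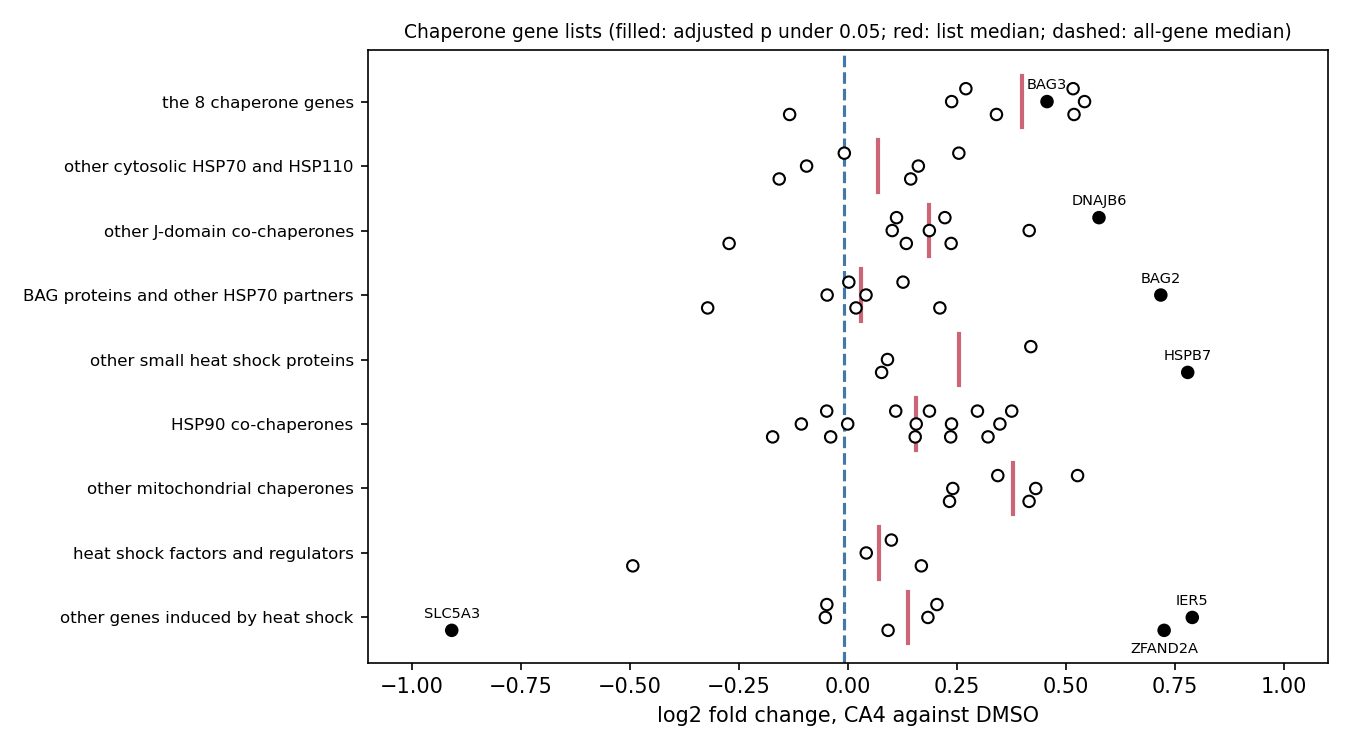
Log2 fold change of CA4 against DMSO (3 libraries each) for every tested gene of the chaperone group (8 genes with a clear level) and of the 8 other lists, with filled points where the limma adjusted p was under 0.05, a red bar at each list's median and a dashed line at the median of all tested genes. The 7 filled points are BAG3, DNAJB6, BAG2, HSPB7, IER5 and ZFAND2A on the right and SLC5A3 on the left.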

How the data were processed

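Per the file headers, the deposited signal is a table of normalized counts, reads per gene that the authors scaled for library depth, with 1 column per library and 38900 Ensembl gene IDs. Per the submitters' processing notes, Trim Galore 0.6.6, FastQC 0.12.1, STAR 2.7.9a, Salmon 1.8.0, DESeq2 1.44.0 and GRCh38 were used. The annotation release and the use of strand are not given in the sources used here. Every column is built on 1 step, the worth of a read: dividing by it gave whole reads, within 0.01, for 100% of the values. At that depth counting error is small for the genes with a clear level.

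The analysis used log2(normalized count + 1). limma 3.58.1 (R 4.3.3) fitted treatment on all 6 libraries with a mean trend in the variance prior, and the Benjamini-Hochberg adjustment ran over all 13928 tested genes, with a threshold of 0.05. Low genes have their change understated on this scale. From the recovered reads, edgeR 4.0.16 (TMM, quasi-likelihood) and DESeq2 1.42.0 were run as alternatives, and the scripts were tested on simulated data. Other alternatives were the pseudocount, the filter, the scaling, the variance prior, the replicate block, and leaving out each library in turn.

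The 10 genes and the 8 lists were chosen with earlier results of these data known. All 10 genes are named, as are the genes of each list past the threshold, or otherwise the 2 with the smallest adjusted p, and the 5 genes most like the group's mean z-score. In the lists 1 of the 68 genes had no matching row. Gene positions are from GENCODE 29 and promoter windows from RefSeq.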

Additional observations from a re-analysis of the deposited data

How the results depend on the processing

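The log2 fold changes of the 8 chaperone genes with a clear level kept their sign under all 19 alternatives, some of which cannot change a fold change. Under some of the others, HSPA8, HSP90AB1, HSP90AA1 and DNAJB1 moved by over 1.5 times, as did HSPA12A, HSPA14 and HSF1 of the named list genes. The median over the chaperone genes tested in a fit, 9 in the fit reported, 8 without HSPA1B and 10 without a filter, was 0.46 and lay between 0.33 and 0.51 in the 17 alternatives that give one. Genes past the threshold, 688 in all, numbered 103 without the mean trend, 2397 with the replicate block, 1613 with DESeq2 and 81 to 994 when 1 library was left out. Chaperone genes past it numbered 0 without the trend, 5 with the replicate block, 3 with DESeq2 and 0 to 3 with 1 library left out. Genes of the other lists past it, 6, numbered 0, 12 and 9 under the first 3 of these and 0 to 8 with 1 library left out. edgeR called 643 genes, with 1 chaperone gene and 6 of the lists. Same-numbered libraries correlated at 0.202, 0.159 and 0.0588 in their deviations from the group means. All were positive but not all above 0.1, a chosen limit, and the numbers were not taken as pairs. The labels do not say whether libraries with the same number were handled together. The fit reported therefore ignores any shared effect of replicate number, as do the overlaps of groups described above. Under the block BAG3, HSP90AA1, HSPH1, HSPD1 and HSPB1 passed, and AHSA1 (limma adjusted p = 0.0179), FKBP4, HSPA9 and HSPE1 of the lists. Scaling to the same total gave 802 genes, 279 higher and 523 lower against 413 and 275, and moved the median of all genes by -0.10. BAG3 fell to 0.36 and passed (limma adjusted p = 0.0483), while BAG2 and HSPB7 were lost, leaving 4 genes of the other lists. HSPA14 turned to -0.028 without CA4 replicate 1. The cause of these moves was not tested.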
